A study of Rattus norvegicus with 4 samples.

Results

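The cytochrome P450 genes of families 1 to 3 were followed in the livers of rats with steatohepatitis, with and without luteolin, a plant flavonoid, in the diet. Members were all probes whose symbol, or whose current name through the Entrez identifier, begins with Cyp1, Cyp2 or Cyp3 and a letter, apart from Cyp2c7 and Cyp2c11. This gave 27 genes of 20093 on the array, of which 23 lay above background on all 4 arrays, against 14167 genes in all. They fell into 14 subfamilies. The rule goes by name and uses no measured value, but it was set with earlier results of these data known.

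All animals were Sprague-Dawley rats that were injected intraperitoneally at 10 weeks with diethylnitrosamine, a liver carcinogen, and then ate a diet lacking methionine and choline for 12 weeks. The controls therefore carry both treatments as well. The 4 groups were transgenic rats on this diet, transgenic rats with luteolin added, wild-type rats on the diet, and wild-type rats with luteolin added. The transgene encodes a dominant negative form of connexin 32 (Cx32), the gap junction protein that joins hepatocytes, so the endogenous gene is still present. The sources used here do not give its promoter, the sex of the rats, the dose of luteolin or whether an array holds 1 rat or a pool. Each group had 1 single-colour array of total liver RNA, so ratios have no replicate check, and their precision is limited by this number.

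Cytochrome P450s are haem enzymes of the endoplasmic reticulum that insert oxygen into their substrates, with electrons passed on by the reductase Por and, for some reactions, by cytochrome b5 (Cyb5a). Families 1 to 3 clear most drugs, plant compounds and carcinogens in the liver, and several also work on steroids and fatty acids. Family 1 is switched on through the aryl hydrocarbon receptor, Cyp2b genes through the receptor CAR (Nr1i3) and Cyp3a genes through the receptor PXR, while in the rat several Cyp2a, Cyp2c and Cyp3a genes differ between the sexes.

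Values are log2 intensities after background correction and quantile normalization, which gives the 4 arrays the same distribution. A ratio is the difference of these values between 2 arrays. A member counts as higher or lower by the call rule when the arrays differ by at least 1.5-fold, a log2 ratio of 0.58, and both lie above background. Over all probes, between 72.5% and 78.7% lay above background on an array. Hepatocyte markers Alb and Ttr lay between 15.19 and 15.62 on every array, while Glul, a marker of pericentral hepatocytes, was not above background on any. Gjb1, the gene of connexin 32, lay between 10.07 and 10.43, and the sources do not say whether its probe reads the transgene. Directions below are relative to the bulk of bright genes, defined as a mean log2 intensity of at least 8, whose median ratio lay between -0.01 and 0.00 in each comparison. Other scalings shift all bright genes together, as given with the normalization below. In whole tissue, fewer cells of a type and less RNA per cell cannot be told apart.

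Promoter sequences were taken from RefSeq (build GRCr8, 250 bases before to 50 after the gene's start) for the 23 members that have one there. Shown here are the 3 members at least 1.5-fold apart in a comparison, and Cyp2d3, whose promoter shares a long run with that of Cyp2d5. They are Cyp3a23-3a1 (chr12:14398754-14399053, minus strand), Cyp2d5 (chr7:115784438-115784737, minus strand), Cyp2d3 (chr7:115802093-115802392, minus strand) and Cyp2a1 (chr1:91359028-91359327, plus strand). Capitals mark any of 6 short motifs searched on both strands. They are the TATA box core TATAAA, the nuclear receptor cores AGTTCA and then AGGTCA, the HNF1 core GTTAAT, the xenobiotic response core GCGTG, and the box core CCAAT. No 2 of them overlap in these 4 windows.
Cyp3a23-3a1: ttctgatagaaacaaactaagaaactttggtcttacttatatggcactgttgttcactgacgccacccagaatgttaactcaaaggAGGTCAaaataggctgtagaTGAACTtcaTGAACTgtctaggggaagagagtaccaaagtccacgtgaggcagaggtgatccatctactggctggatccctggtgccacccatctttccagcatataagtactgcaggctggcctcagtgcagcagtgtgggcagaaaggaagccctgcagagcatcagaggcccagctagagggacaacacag
Cyp2d5: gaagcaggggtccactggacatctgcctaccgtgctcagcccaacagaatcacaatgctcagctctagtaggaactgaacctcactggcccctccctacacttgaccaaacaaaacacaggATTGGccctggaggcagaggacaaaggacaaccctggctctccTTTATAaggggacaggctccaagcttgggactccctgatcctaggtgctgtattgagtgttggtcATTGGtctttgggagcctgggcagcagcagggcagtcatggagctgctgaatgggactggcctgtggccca
Cyp2d3: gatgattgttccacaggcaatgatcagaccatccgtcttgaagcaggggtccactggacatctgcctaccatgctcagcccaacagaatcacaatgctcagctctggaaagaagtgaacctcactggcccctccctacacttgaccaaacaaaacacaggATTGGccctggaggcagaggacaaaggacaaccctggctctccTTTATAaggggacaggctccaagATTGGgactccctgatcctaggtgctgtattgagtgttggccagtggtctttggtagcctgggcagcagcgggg
Cyp2a1: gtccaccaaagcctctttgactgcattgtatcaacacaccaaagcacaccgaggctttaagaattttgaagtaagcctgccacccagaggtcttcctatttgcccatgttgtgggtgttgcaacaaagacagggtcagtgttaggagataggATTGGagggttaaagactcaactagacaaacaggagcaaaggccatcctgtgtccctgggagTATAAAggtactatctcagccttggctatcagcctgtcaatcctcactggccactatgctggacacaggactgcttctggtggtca

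In the Cyp3a23-3a1 promoter the AGTTCA motif, a core recognised by nuclear receptors, stands 2 times on the minus strand, written TGAACT, with 3 bases between the copies. They begin at -144 and -135 from the start. That arrangement was found in 2 of 27457 promoters of this length (0.00728%), and in 1 of the 23 members. Only this exact pattern was searched for, at no other spacing and with no variant letters. Any exact pattern this long is rare, so the small share alone does not show whether the repeat has a role, which was not tested. A single AGTTCA was present in 6 of 23 member promoters and in 14.4% of all, AGGTCA in 7 and in 15.7%, and TATAAA in 7 and in 14.3%. GCGTG, the core to which the aryl hydrocarbon receptor binds, was present in 5 members and in 31.1% of all promoters, CCAAT in 11 and in 37.7%, and GTTAAT in 2 and in 7.37%. The Cyp2d3 and Cyp2d5 promoters share an unbroken run of 112 identical bases, which holds a CCAAT and a TATAAA, both on the minus strand. It begins at -136 from the start of Cyp2d3 and at -175 from that of Cyp2d5. Those of Cyp2d1 and Cyp2d3 are 88.2% identical over 304 aligned columns, whereas Cyp2d2 and Cyp2d3 are 47.0% identical. These matches describe the letters in the windows and no binding was measured.

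**Figure D1:**
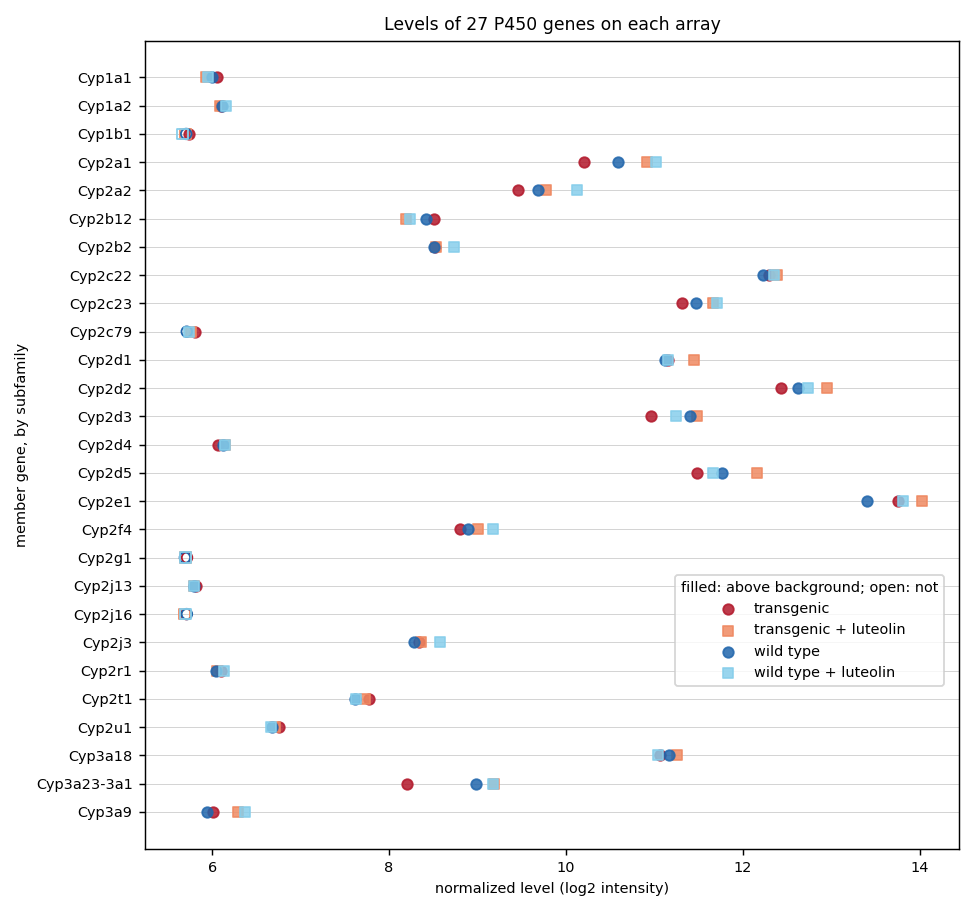
Each row is 1 member gene and each symbol its normalized log2 intensity on 1 of the 4 arrays; open symbols lay not above background. Cyp3a23-3a1 sits lowest on the transgenic array (8.21), and Cyp2d5 highest on the transgenic array with luteolin (12.16). Positions of different genes are not comparable as transcript levels, since probes differ.

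The first comparison asked how luteolin related to these genes in transgenic rats. Members of the Cyp3a, Cyp2d and Cyp2a subfamilies were higher with luteolin, led by Cyp3a23-3a1, Cyp2a1 and Cyp2d5. By the call rule 3 of 24 members were higher (12.5%), against 0.487% of 14370 genes, and 0 were lower, against 1.02%. Of the members, 16 were higher at any size and 8 lower, with a median log2 ratio of 0.14, beside 0.01 over all genes. Among the 15 bright members 14 were higher (median 0.29), while 50.7% of 3127 bright genes were (median 0.00).

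Cyp3a23-3a1, a steroid and drug hydroxylase that is a classical PXR target in the rat, had log2 intensities of 8.21 in the transgenic rat, 9.19 with luteolin added, 8.99 in the wild type and 9.18 with luteolin added. The transgenic array without luteolin was thus the low one, and the other three lay between 8.99 and 9.19. Its ratio with luteolin in transgenic rats was 1.97-fold (log2 0.98). The probe's accession names Cyp3a23-3a1 and its Entrez identifier Cyp3a73, so which of the 2 genes it measures is uncertain.

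Cyp3a18, a steroid hydroxylase that is higher in male rats, differed less, with values of 11.07 and 11.26 on the transgenic arrays without and with luteolin and 11.16 and 11.04 on the wild-type arrays. Its luteolin ratios were 0.19 in transgenic and -0.12 in wild-type rats, and both changed sign with median centring (-0.09 and 0.19) and with the authors' values (-0.03 and 0.10). Cyp3a9, which is higher in female rats, lay close to background at 6.01 and 6.29 on the transgenic arrays and 5.94 and 6.37 on the wild-type arrays. Both arrays with luteolin were above both without it. In background-subtracted intensity the same gene read 15.2 and 23.1 units in transgenic rats and 8.09 and 33.5 units in wild-type rats. The offset added before taking logs pulls such dim ratios toward 0, and with the authors' values they came to 0.76 and 1.90.

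The Cyp2d genes encode enzymes of debrisoquine and other basic drugs and lie close together on chromosome 7. All 5 were higher with luteolin in transgenic rats, with log2 ratios from 0.08 for Cyp2d4, which is close to background, to 0.67 for Cyp2d5. Cyp2d5 had log2 intensities of 11.48 in the transgenic rat, 12.16 with luteolin added, 11.76 in the wild type and 11.67 with luteolin added. It stood highest on the transgenic array with luteolin and differed 1.59-fold between the transgenic arrays. Cyp2d3 read 10.96, 11.48, 11.40 and 11.24 on the arrays in the same order, and was lowest on the transgenic array without luteolin. Cyp2d2 read 12.43, 12.95, 12.63 and 12.73, lowest and highest on the same arrays as Cyp2d5. Cyp2d1 read 11.16, 11.44, 11.12 and 11.15, with the transgenic luteolin array above the other three. Before the shift of bright genes was taken off, other scalings put Cyp2d1 and Cyp2d2 lower there than on the wild-type luteolin array. The ratios were -0.15 and -0.16 with median centring, and -0.25 and -0.26 with the authors' values. The Cyp2d genes are close copies, and the files do not show how far their probes read each other's transcripts.

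Cyp2a1, a testosterone hydroxylase, read 10.20 in the transgenic rat, 10.92 with luteolin added, 10.58 in the wild type and 11.01 with luteolin added. Both arrays with luteolin lay above both without. Its ratio in transgenic rats was 1.64-fold (log2 0.71). Cyp2a2, a testosterone hydroxylase of male rat liver, read 9.46 and 9.78 on the transgenic arrays without and with luteolin, and 9.69 and 10.12 on the wild-type arrays. Within each genotype it was higher with luteolin, by 0.32 and 0.44.

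In wild-type rats no member reached the call rule with luteolin. By the call rule 0 of 23 members were higher, against 0.296% of 14841 genes, and 0 lower, against 0.377%. At any size 16 members were higher and 7 lower (median 0.08, beside 0.00 over all genes). Median centring and the authors' values put the members' median at 0.38 and 0.32 here, and at -0.0051 and -0.020 in transgenic rats. The largest ratios were those of Cyp2a2 (0.44), Cyp3a9 (0.43), Cyp2a1 (0.43) and Cyp2e1 (0.42). Cyp2d genes had a median of 0.03 and ranged from -0.16 for Cyp2d3 to 0.11 for Cyp2d2, with 3 higher and 2 lower. The 2 lower, Cyp2d3 and Cyp2d5, were higher with median centring (0.19 and 0.25) and with the authors' values (0.10 and 0.16), before the shift of bright genes was taken off.

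The luteolin ratios of the 2 genotypes share no array. Of 23 members, 13 were higher with luteolin in both genotypes, 56.5%, against 29.8% of 14167 genes. Lower in both were 4 members, against 25% of all genes. Among bright members 11 of 15 were higher in both, against 26.4% of bright genes. These 11 were Cyp2a1, Cyp2a2, Cyp2b2, Cyp2c22, Cyp2c23, Cyp2d1, Cyp2d2, Cyp2e1, Cyp2f4, Cyp2j3 and Cyp3a23-3a1. In transgenic rats Cyp2b2 (0.0052) and Cyp2j3 (0.022) hardly differed. Before the shift of bright genes was taken off, some transgenic ratios were negative under other scalings. Those of Cyp2b2, Cyp2j3, Cyp2c22 and Cyp2f4 were so with median centring and with the authors' values, and that of Cyp2e1 with median centring alone.

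**Figure D2:**
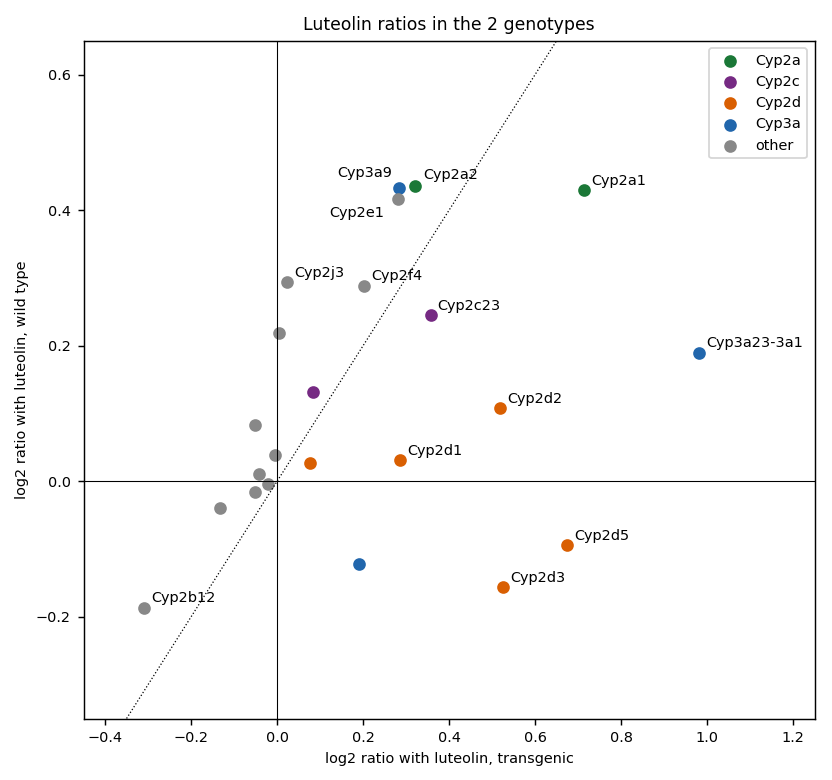
Each point is 1 of the 23 members above background on all 4 arrays, placed by its log2 ratio with luteolin in transgenic rats (x axis) and in wild-type rats (y axis); colours mark subfamilies, the dotted line equal ratios, and values are quantile normalized. The Cyp2d genes and Cyp3a23-3a1 (0.98 and 0.19) lie right of the dotted line, and Cyp2e1 (0.28 and 0.42), Cyp2a2 and Cyp3a9 left of it.

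Cyp2e1, which metabolises ethanol and activates diethylnitrosamine, had log2 intensities of 13.75 in the transgenic rat, 14.03 with luteolin added, 13.40 in the wild type and 13.82 with luteolin added. The wild-type array without luteolin was the lowest. Within each genotype luteolin was the higher array, by 0.28 and 0.42, and within each diet transgenic was the higher, by 0.35 without and 0.22 with luteolin. The transgenic luteolin ratio was -0.02 with median centring and 0.04 with the authors' values, and the genotype ratio with luteolin -0.26 and -0.36, before the shift of bright genes was taken off.

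Cyp2c23, an epoxygenase of arachidonic acid in the rat, read 11.31 and 11.67 on the transgenic arrays without and with luteolin, and 11.47 and 11.71 on the wild-type arrays. Its luteolin arrays stood above both others. Cyp2c22 lay between 12.22 and 12.38 on all arrays. Cyp2j3, another fatty acid epoxygenase, was at 8.57 on the wild-type luteolin array and between 8.28 and 8.36 on the other three. Cyp2f4, known for oxidising naphthalene in the lung, read 8.80 and 9.00 in transgenic and 8.89 and 9.18 in wild-type rats, without and with luteolin.

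The Cyp2b genes are the best-known CAR targets and are induced by phenobarbital. Cyp2b2 read 8.53 on both transgenic arrays, and 8.51 and 8.73 in the wild-type pair without and with luteolin. A further probe carries the symbol Cyp2b12, but its Entrez identifier names Cyp2b2, so its gene is uncertain. It was lower with luteolin in both genotypes, reading 8.50 and 8.20 in transgenic and 8.42 and 8.23 in wild-type rats. The 2 probes therefore went different ways in wild-type rats, with ratios of 0.22 and -0.19.

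Targets of the aryl hydrocarbon receptor were near or at background. Cyp1a1 was between 7.62 and 17.7 units above the array background, with log2 intensities of 6.06 and 5.93 in transgenic rats without and with luteolin, and 5.99 and 5.96 in the wild-type pair. Cyp1a2, which is constitutive in rat liver, was between 14.0 and 20.7 units above background, and its log2 intensities spanned 6.09 to 6.15. Cyp1b1, found mainly outside the hepatocyte, was above background on the transgenic array alone, by 1.91 units. Cyp1a1 read 17.7 and 7.62 units in transgenic rats without and with luteolin. Its log2 ratio there was -0.13 after quantile normalization and -1.05 with the authors' values, to which no offset had been added. A ratio this close to background depends on the offset. Of the receptor's own machinery, Ahr lay between 8.47 and 8.79 and Arnt between 6.23 and 6.35.

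The remaining members were dim or flat. Cyp2u1, a fatty acid hydroxylase, lay between 6.66 and 6.76, the vitamin D 25-hydroxylase Cyp2r1 between 6.05 and 6.13, and Cyp2t1 between 7.62 and 7.77. Cyp2j13 lay between 5.79 and 5.82. Cyp2c79 was above background on 3 arrays, at 5.81 and 5.77 in transgenic rats without and with luteolin and 5.74 in the wild type with luteolin. The olfactory enzyme Cyp2g1 and Cyp2j16 were not above background on any array.

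The second comparison set transgenic against wild-type rats on the same diet. Without luteolin, Cyp3a23-3a1 was 1.72-fold lower in the transgenic rat (log2 ratio -0.78), and it was the 1 member lower by the call rule of 23, 4.35%, against 0.386% of 14766 genes. No member was higher by that rule, against 0.684% of all genes. Next lowest were Cyp2d3 (-0.44), Cyp2a1 (-0.38), Cyp2d5 (-0.28) and Cyp2a2 (-0.23). Over all members 12 were higher and 11 lower, with a median of 0.01. With luteolin, 0 of 24 members passed the call rule in either direction, against 0.43% of 14426 genes higher and 0.444% lower, and 12 members were on each side of 0. Cyp2d5 was at 0.49 and Cyp3a23-3a1 at 0.01, where median centring gave 0.05 and -0.34 and the authors' values -0.05 and -0.48 before the shift of bright genes was taken off.

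The genotype ratios of the 2 diets share no array either. Transgenic was higher in both for 6 of 23 members (26.1%), against 25.3% of all genes, and lower in both for 6, against 27.1%. These shares were near those of all genes. Cyp2a1 and Cyp2a2 were lower in both, by -0.38 and -0.23 without and -0.10 and -0.35 with luteolin. The luteolin ratio of transgenic rats and the genotype ratio without luteolin both use the transgenic array without luteolin, so a value that is low there enters both.

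An additive model with genotype and luteolin was fitted by limma to the 14167 genes above background on all 4 arrays, to set the mean difference against the residual, which has 1 degree of freedom and holds the interaction too. No member had an adjusted p under 0.05 for luteolin or for genotype, and neither did any other gene (0% of genes for each). For luteolin 6 of 23 members were higher at an unadjusted p under 0.05, against 4.1% of all genes, and 1 lower, against 4.52%. The 6 were Cyp2a1 (mean difference 0.57, SE 0.09), Cyp2a2 (0.38, SE 0.05), Cyp3a9 (0.36, SE 0.06), Cyp2e1 (0.35, SE 0.06), Cyp2c23 (0.30, SE 0.05) and Cyp2f4 (0.24, SE 0.05), and the 1 lower was the Cyp2b12 probe (-0.25, SE 0.05). Each had an adjusted p = 0.561 over all genes. Cyp3a23-3a1 (0.59, SE 0.24) and Cyp2d5 (0.29, SE 0.23) had the widest errors of the members, since their 2 luteolin ratios differed most.

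For genotype 1 member was higher at an unadjusted p under 0.05, Cyp2e1 (0.28, SE 0.06), against 3.6% of all genes, and 1 lower, Cyp2a2 (-0.29, SE 0.05), against 3.63%. Both had an adjusted p = 0.685 in limma's test. When the limma prior followed intensity, 2 members passed for luteolin, Cyp3a9 (adjusted p = 0.000233) and Cyp2a1 (adjusted p = 0.0364), against 2.32% of all genes. For genotype 0 members passed under that prior, against 1.07%. Cyp3a9 lies close to background, where the offset added before taking logs narrows differences between arrays. A prior that follows intensity can set a small error there. The size of its luteolin ratio is not settled by this p. In wild-type rats that ratio was 0.43 with quantile normalization and 1.90 with the authors' values.

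The normalization bears on these ratios. When arrays were only centred on their medians, the median ratio of bright genes moved from 0.00 to -0.26 for luteolin in transgenic rats and from -0.01 to 0.27 in wild-type rats. With the authors' globally normalized values these medians were -0.23 and 0.21. For genotype they went from 0.00 to 0.20 and -0.03 without luteolin, and from 0.00 to -0.34 and -0.48 with it. Of all genes called in transgenic rats with luteolin, 32.3% were higher, against 5.42% with median centring and 7.78% with the authors' values. In wild-type rats the shares were 44%, 93.3% and 80.8%, for genotype without luteolin 63.9%, 91.8% and 70.5%, and with luteolin 49.2%, 3.98% and 3.19%. Set against the bright-gene median of each scaling, the bright members changed little. Taking off that median removes any shift common to bright genes, so this agreement is largely built in and is no independent check. In transgenic rats 12 of 15 were higher with luteolin under all 3 scalings and 1 was lower, the Cyp2b12 probe, while Cyp2b2 and Cyp2j3 changed sign around 0. In wild-type rats 11 of 15 were higher and 4 lower under all 3. The 4 were the Cyp2b12 probe, Cyp2d3, Cyp2d5 and Cyp3a18.

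On that relative scale Cyp3a23-3a1 ranged from 0.95 to 1.08 for luteolin in transgenic rats. Cyp2a1 ranged from 0.69 to 0.74 and Cyp2d5 from 0.61 to 0.67. Among the 15 bright members these same 3 were at least 1.5-fold higher under each scaling. In wild-type rats none of the 15 was under any of them. With quantile normalization, before that median was taken off, 1.57% of bright genes were that much higher in transgenic and 1.09% in wild-type rats. Shares of bright genes on the relative scale were not counted. The dim Cyp3a9 was at 0.44, 0.18 and 1.69 in wild-type rats with quantile normalization, median centring and the authors' values. Without luteolin, Cyp3a23-3a1 was lower in transgenic rats by -0.76 to -0.86. Before the shift of bright genes was taken off, 2 of the 3 fell under the call rule for luteolin in transgenic rats. Cyp2a1 was at 0.44 with median centring and 0.52 with the authors' values, and Cyp2d5 at 0.36 and 0.43. Cyp3a23-3a1 stayed above the rule, at 0.70 and 0.85.

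**Figure D3:**
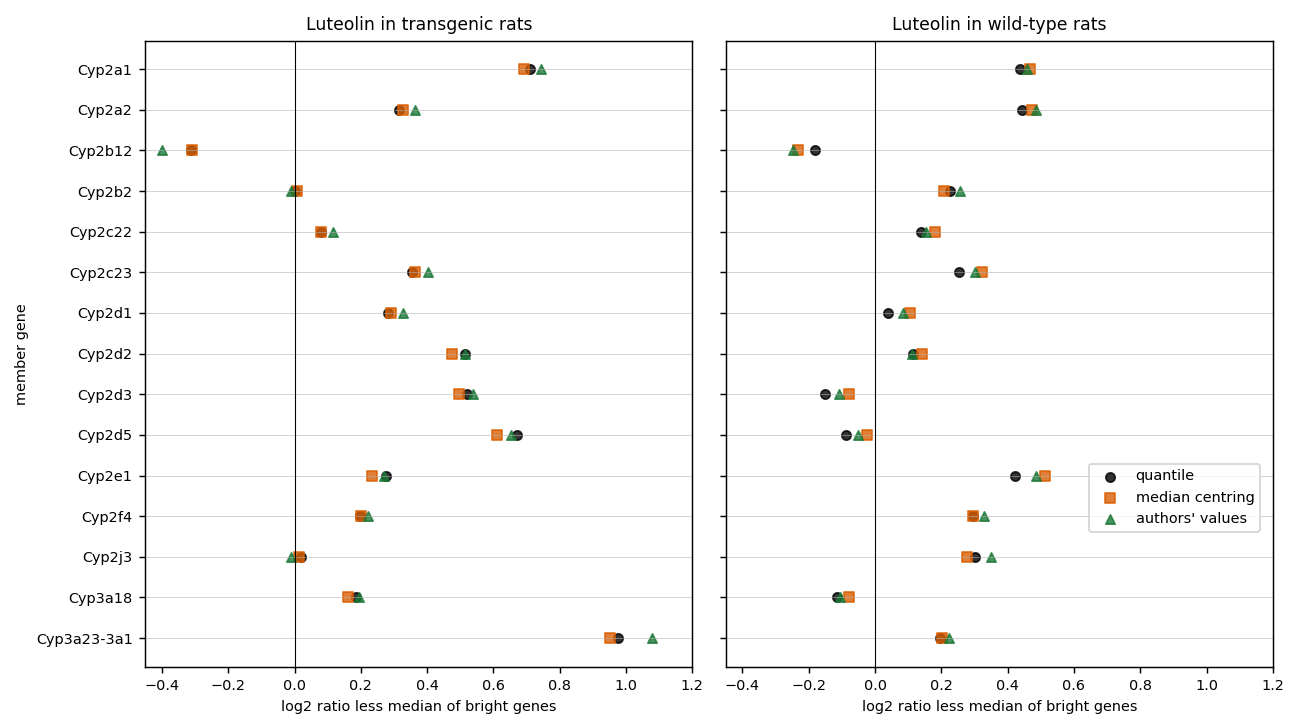
Each row is 1 of the 15 bright members and each symbol its log2 ratio with luteolin less the median ratio of bright genes, under quantile normalization, median centring or the authors' values, for transgenic (left) and wild-type rats (right). The 3 symbols of a gene lie close together, as taking off that median removes shifts common to bright genes. Cyp3a23-3a1 (0.95 to 1.08), Cyp2a1 and Cyp2d5 stand furthest right in transgenic rats.

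Genes that serve these enzymes were given from a list of 21 electron donors, haem enzymes, receptors and epoxide hydrolases, of which 17 were found on the array and 16 above background throughout. With luteolin 11 of 16 were higher in transgenic rats (median 0.13), 1 by the call rule, and 11 in wild-type rats (median 0.05), none by the rule. Over all genes 54.5% and 49.9% were higher, and 0.487% and 0.296% higher by the rule. The 1 was Ephx2, a soluble epoxide hydrolase, at 8.49 and 9.09 in transgenic rats without and with luteolin, and 9.27 and 9.00 in the wild-type pair. It was lowest on the transgenic array without luteolin, as Cyp3a23-3a1 was, with a ratio of -0.78 to wild type.

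The reductase Por read 10.01 and 9.64 on the transgenic arrays without and with luteolin and 9.87 and 9.90 on the wild-type arrays, so its ratio in transgenic rats (-0.38) was opposite in sign to those of Cyp3a23-3a1 and the Cyp2d genes. Cyb5a lay at 12.57 on the wild-type array and between 12.96 and 13.02 on the other three, also lowest where Cyp2e1 was. Nr1i3, the receptor CAR, ranged from 8.90 on the transgenic array to 9.16 on the transgenic luteolin array. Ephx1, the microsomal epoxide hydrolase, was lower with luteolin in both genotypes (-0.26 and -0.29).

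Summed markers of stellate cells, cholangiocytes and macrophages were highest on the transgenic array without luteolin. Cyp3a23-3a1 was lowest on that array, whereas Cyp2e1 was lowest on the wild-type array. The summed intensity of 6 stellate cell and myofibroblast markers was 4222 on the transgenic array and between 1616 and 1906 on the other three, and all 6 were lower with luteolin in transgenic rats (median -1.01). That of 6 cholangiocyte markers was 1306 on the transgenic array and between 758 and 992 on the others, with all 6 lower with luteolin in both genotypes (medians -0.38 and -0.20). In wild-type rats 3 stellate markers were higher and 3 lower with luteolin. The 5 macrophage markers summed to 5308 on the transgenic array and 2535 to 3456 on the others. Lyz2, the brightest of them at 11.74 on the transgenic array, weighs most in that sum. Without luteolin only Lyz2 (0.94) and Cd68 (0.61) were higher in transgenic than in wild-type rats, and 3 were lower (median -0.05). With luteolin 3 were higher and 2 lower in transgenic rats, the latter Lyz2 (-1.22) and Cd68 (-0.67). In wild-type rats 1 macrophage marker was higher and 4 lower with luteolin. Hepatocyte markers summed to between 119721 and 126356. Most of that sum is Alb and Ttr, which are so bright that quantile normalization holds them nearly equal. Its steadiness therefore says little about hepatocyte content. Of the 6 markers, 5 were higher and 1 lower with luteolin in transgenic rats, and 1 higher and 3 lower in wild-type rats. Without luteolin 1 was higher and 4 lower in transgenic than in wild-type rats (median -0.15). The largest ratio among the 6 was -0.52, that of Apob between the luteolin arrays. Endothelial markers summed to between 438 and 469, and periportal markers to between 18828 and 20711. Of 7 periportal markers 4 were higher and 3 lower with luteolin in transgenic rats (median 0.13). In wild-type rats 2 periportal markers were higher and 5 lower (median -0.11). Pericentral markers, the zone in which Cyp2e1 is expressed, were higher with luteolin in 4 of 5 measured genes in transgenic rats (median 0.11) and in 5 of 5 in wild-type rats (median 0.14). The part of these cell types in the P450 ratios was not tested.

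**Figure D4:**
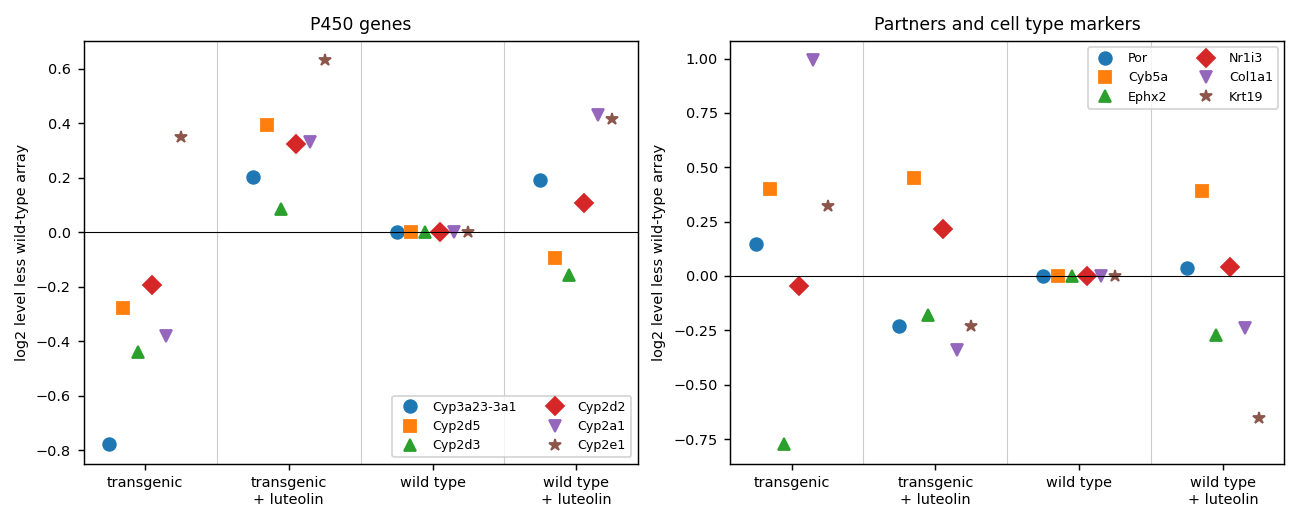
Symbols show log2 intensity less that of the wild-type array, for 6 P450 genes (left) and for 4 partner genes, the collagen Col1a1 and the biliary keratin Krt19 (right), on each of the 4 arrays. Cyp3a23-3a1 (-0.78) and Ephx2 (-0.78) lie lowest on the transgenic array, on which Col1a1 (0.99) is highest.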

How the data were processed

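Liver RNA was amplified and carried the dye Cy5, per the labels' protocols, with 1 array per group. The deposited tables gave per probe a raw intensity, an intensity less 1 background constant per array (37.5 to 39.8) and the authors' globally normalized intensity, which sets each array's median to 25, per the file headers and the values. The series table holds the last, rounded (largest gap 0.500). So that table is on a linear scale without centring of genes.

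Raw intensities were corrected with limma's normexp (offset 50), taken to log2 and quantile normalized (R 4.3.3, limma 3.58.1). Probes with a background-subtracted value from the authors counted as above background. Of 20174 probes, 10607 were named by curated accession, 3100 by Entrez identifier and 1716 by symbol or synonym through RefSeq, and 122 had conflicting names. The brightest probe stood for a gene, and 2 flagged spots were left out. The limma model used Benjamini-Hochberg adjustment over all genes and was tested on simulated data. Members, lists and tests were chosen with earlier results of these data known, and the bright-gene and file-neighbour corrections after seeing the data. Values are given for members by the rule that all may be named, in full for those at least 1.5-fold apart and the 10 brightest, for those above background on 1 to 3 arrays, and for partner genes 1.5-fold apart plus Por, Cyb5a, Ahr and Nr1i3 (Nr1i2 was not used here). Ephx1, Arnt, values of other members and the marker genes named were chosen after their values were seen. Alternatives were another offset, median centring, the authors' values, a filter on dim probes, every probe and an intensity trend.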

Additional observations from a re-analysis of the deposited data

Results flagged for a closer look

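Luteolin ratios went opposite ways in the 2 genotypes, each by at least 0.1 (log2), for 2 members. Cyp2d3 was at 0.53 in transgenic and -0.16 in wild-type rats, a difference of 0.68, and Cyp3a18 at 0.19 and -0.12, a difference of 0.31. These differences were not tested, since each rests on 4 single arrays. Relative to bright genes both were below 0 in wild-type rats and above 0 in transgenic rats under all 3 scalings. Without that reference, the wild-type ratios of both were above 0 with median centring and with the authors' values, from 0.10 to 0.19, and those of Cyp3a18 in transgenic rats below 0 (-0.09 and -0.03).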

How the results depend on the processing

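With 1 array per group no array could be left out, and no paired analysis was possible because no group has a second array. Over the alternatives 70 of 90 counts and medians stayed within 1.5 times the count, or within 0.1 of the median with its sign kept. Using every probe, or taking off the bright-gene median after quantile normalization, leaves the members nearly unmoved by construction, so this tally can overstate stability. Within these bounds the authors' values gave 2 members higher for luteolin in transgenic rats, against 1.57% of all genes. The 2 members were Cyp3a23-3a1 (0.85) and the dim Cyp3a9 (0.76), while Cyp2a1 (0.52) and Cyp2d5 (0.43) fell under the call rule. For luteolin in transgenic rats, median centring gave 1 member at least 1.5-fold higher, against 0.181% of all genes, and a median of -0.0051. The authors' values gave 4 of 24 members lower, against 18.6% of all genes, and a median of -0.020. The dim filter gave a median of 0.28. For luteolin in wild-type rats, 1 member was higher with an offset of 16, against 0.519% of all genes. Median centring gave 4 higher (median 0.38), against 2.16%, and the authors' values 4 (median 0.32), against 10.1%. For genotype without luteolin, median centring gave 0 lower, against 0.142% of all genes. The members' median for that comparison was -0.017 with the authors' values and -0.093 with the dim filter. For genotype with luteolin, 1 member was lower with median centring (median -0.17), against 3.85% of all genes. With the authors' values 7 of 24 members were lower (median -0.46), against 30.1% of all genes. The median was 0.020 with the dim filter and 0.014 less neighbouring rows. An intensity trend gave 2 members with an adjusted p under 0.05 for luteolin. Median centring and the authors' values shift bright genes as a whole, by the values given above. Over all genes, calls for luteolin in transgenic rats numbered 70 higher and 147 lower, 135 and 286 with an offset of 16, 26 and 454 with median centring and 226 and 2678 with the authors' values. Signal near background limits what could be seen for dim members.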

Other observations

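Further probes are described in the files as P450s of these families but are not taken in by the symbol or the Entrez identifier. The probe described as Cyp2c6 (current name Cyp2c6v1), a phenobarbital-inducible enzyme, read 13.74 and 13.75 in transgenic rats without and with luteolin, and 13.93 and 13.74 in the wild-type pair. The probe described as Cyp2b15 was higher with luteolin in both genotypes (0.43 and 0.54, mean difference 0.48, SE 0.05, adjusted p = 0.561 in limma's test), and that described as Cyp2b3 had ratios of 0.03 and 0.36. Those described as Cyp2c24 and Cyp2s1 were above background on 0 and 2 arrays.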
